A study of Mus musculus with 18 samples.

Results

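Which transcripts of the heart differ within a day of birth in a rat line with altered titin splicing was examined by setting 3 arrays of mutant hearts against 3 arrays of wild-type hearts, all taken 1 day after birth. These are 6 of the 18 arrays of the study. The other 12 arrays are of mutant and wild-type hearts at 20 and 49 days, with 3 animals per genotype and age. Members were chosen by the genotype in the source and description fields and by the stated age, since the field for the genotype does not differ between samples. The mutant animals were homozygous for a spontaneous mutation first seen in Sprague-Dawley rats, and that stock was crossed with Fisher 344 inbreds, per the labels' protocols and the series design text. No transgene, drug or diet is named for either genotype. The design text describes extracts of individual ventricles, so that each array is a separate animal, whereas the titles name the whole heart. The labels do not say which animals were littermates.

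Background work traced this line to Rbm20, which encodes an RNA-binding protein of striated muscle that keeps parts of the titin transcript out of the mature message. Titin is the giant spring of the sarcomere, anchored at the Z-disc and reaching to the M-band, and without RBM20 the heart retains long and compliant forms of it. The newborn heart normally shortens its titin, switches from glucose to fatty acids as its main fuel and enlarges its cells in place of dividing them. The levels given here are log2 values per probe set, a group of short probes read together for a transcript. Most probe sets lie near transcript ends and do not tell splice forms apart, and levels of different probe sets are not compared.

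The 6 day 1 arrays were alike over all probe sets, with correlations of 0.985 to 0.994 within the mutant, 0.989 to 0.995 within the wild type and 0.988 to 0.992 between the genotypes. Their main axis of difference did not follow genotype. The first principal component carried 38.4% of their variance. It put mutants 1 and 2 and wild type 2 at -26.6, -19.6 and -14.1, and mutant 3 and wild types 1 and 3 at 28.2, 16.1 and 16.0. The control probe sets of Gapdh, read at the 3′ and the 5′ end of the transcript, split the arrays in the same way. The 3′ level exceeded the 5′ level by 1.37, 1.10 and 0.63 in mutants 1, 2 and 3 and by 0.94, 1.06 and 0.82 in wild types 1, 2 and 3, a sign of how evenly the RNA ends were read. The 3 arrays with a gap above 1 were the 3 on the negative side of the component. Xist, the transcript of the inactive X chromosome, was at 12.16 in mutant 3 and at 11.96 in wild type 2 and between 3.26 and 3.59 in the other 4 animals. The Y-linked Eif2s3y was at 2.92 and 2.91 in those 2 animals and between 8.29 and 8.71 in the others, so that each genotype held 1 animal of this pattern. Sln, which encodes the atrial calcium pump regulator sarcolipin, was at 10.03 and 10.09 in mutants 2 and 3 and between 5.97 and 6.32 in mutant 1 and all wild types.

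**Figure D1:**
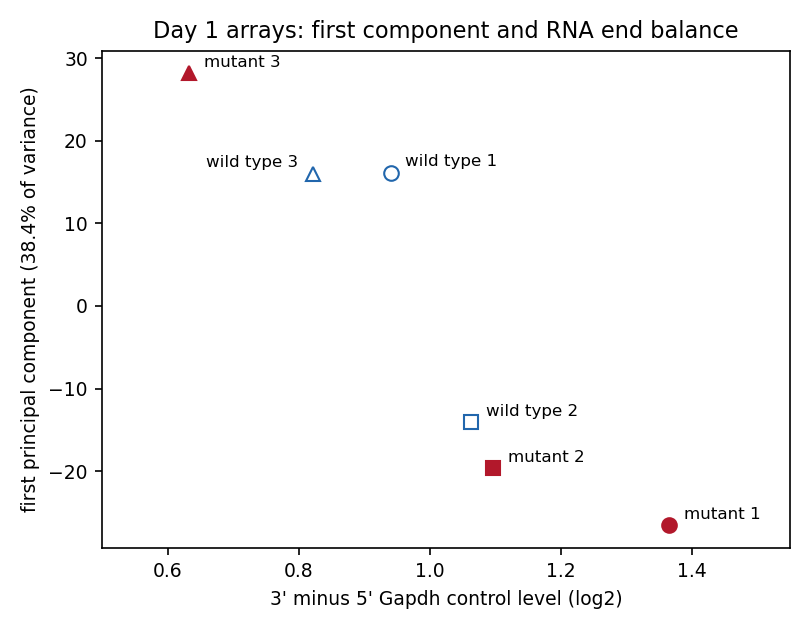
The 6 day 1 arrays by the 3′ minus 5′ level of the Gapdh control probe sets (log2, horizontal) and by the first principal component over all tested probe sets (vertical, 38.4% of the variance). Filled red symbols are mutant and open blue symbols wild-type animals; the 3 arrays with a gap above 1 lie between -26.6 and -14.1, and the 3 others between 16.0 and 28.2.

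Rbm20 itself set the genotypes farthest apart. Its first probe set was at 6.12, 5.50 and 5.51 in mutants 1, 2 and 3 and at 10.73, 10.63 and 10.90 in wild types 1, 2 and 3. Every mutant lay far below every wild type, so each array carries the level its genotype label calls for. The difference was -5.04 ± 0.20 (standard error, SE, n = 3 per genotype), a 33.0-fold lower level, with an adjusted p of 8.55e-11. This and all later adjusted p are two-sided values from limma after Benjamini-Hochberg correction over all 31042 probe sets. Each SE comes from the same fit, which takes its spread from all 18 arrays and not from the day 1 animals alone. The second probe set was at 4.84, 4.87 and 4.35 in the mutants and at 6.68, 6.69 and 6.62 in the wild types, and it fell by 1.98 with an SE of 0.15 and an adjusted p of 2.35e-06. Its mutant levels lay below 5.47, the median level of all probe sets, where background makes up much of a reading. The place of these probes in the gene was not analysed here.

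In all 34 of the 31042 probe sets were called at an adjusted p below 0.05, which is 0.110% of them, with 17 higher (0.0548%) and 17 lower (0.0548%) in the mutant. They comprised 21 named genes, 10 higher and 11 lower, and 10 probe sets with no gene symbol in the platform annotation. The genotypes did not overlap on any of the 34, as on 2814 probe sets overall (9.07%). A difference of at least 2-fold was seen in 17 of the calls and in 45 of all probe sets. At an unadjusted p below 0.05 there were 2080 probe sets, 6.70% of those tested. The count turned on single animals. It was 17, 15 and 17 without mutant 2, wild type 1 or wild type 3, 50 without mutant 1, 234 (0.754%) without mutant 3 and 111 (0.358%) without wild type 2. With mutant 3 and wild type 2, the 2 animals of high Xist, both left out, 1239 probe sets were called (3.99%) and all 34 were among them. The 4 animals then compared, mutants 1 and 2 against wild types 1 and 3, also lie at opposite ends of the first component and of the Gapdh gap, so genotype and RNA end balance cannot be told apart among them. With the Gapdh gap as a covariate this count was 609 (1.96%). Over all 6 arrays the covariate gave 43 calls, which included all 34. Without the 3 arrays of a gap above 1, which leaves 1 mutant, there were 64 calls, and without mutants 2 and 3 of high Sln, which also leaves 1 mutant, there were 64 as well, in each case 17 of the 34 among them. The day 1 arrays on their own gave 4 calls: both Rbm20 probe sets, 1 of Ildr2 and a dim one of Dguok. That fit has few degrees of freedom, and the median residual variance was 0.0213 at day 1 against 0.0159 and 0.0183 at days 20 and 49. The part of each in the lower count was not tested. Arrays centred on their medians gave 10 higher and 16 lower.

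**Figure D2:**
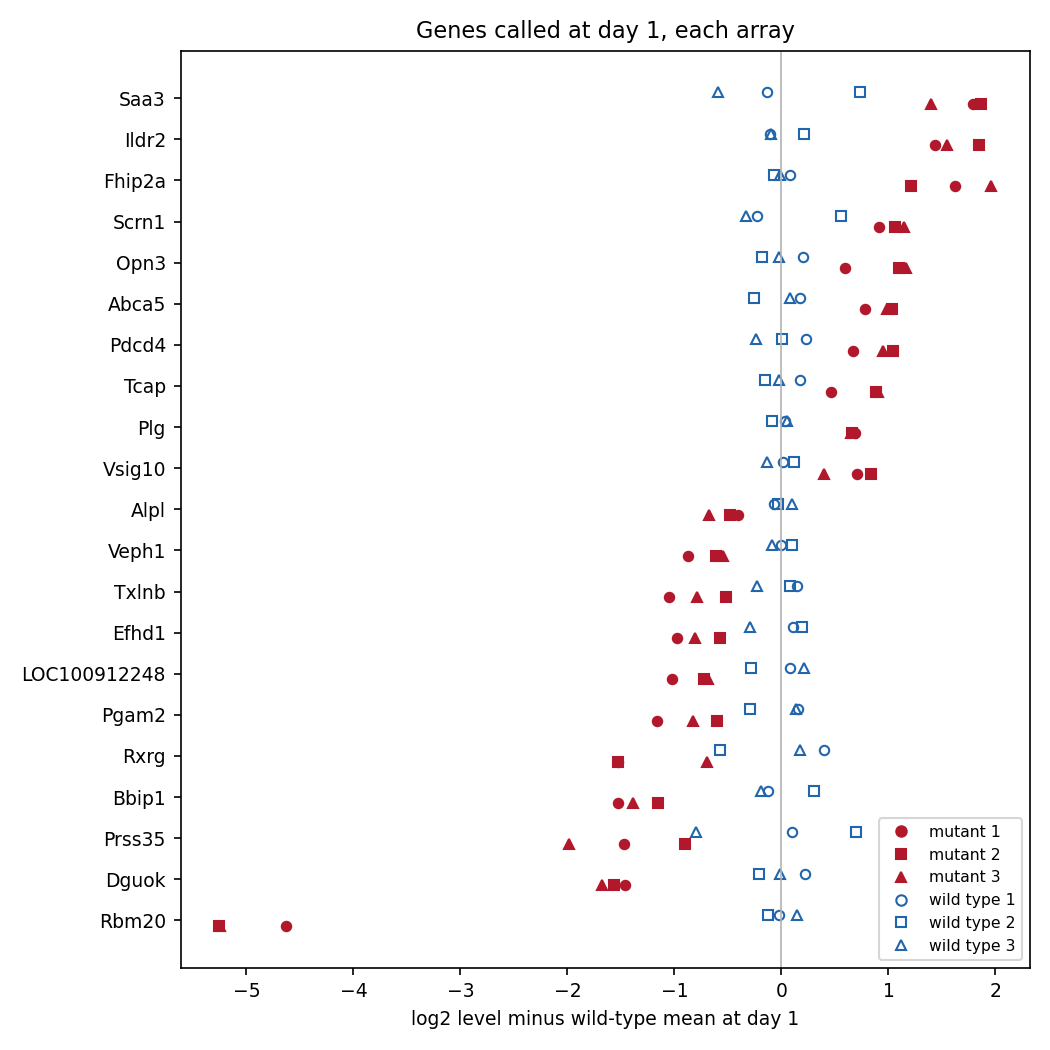
The 21 named genes called at day 1, each by its probe set of smallest p, as the log2 level of every array minus the wild-type mean (horizontal). Filled red symbols are the 3 mutant and open blue symbols the 3 wild-type animals; Rbm20 stands alone at about 5 units below the wild type, and the other 20 genes lie closer to 0, with Saa3 highest at a mean difference of 1.69.

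No other muscle splicing regulator and no known target of RBM20 was called. Of 13 measured splicing regulators, among them Rbm24, Rbfox2, Celf1 and the Mbnl genes, Rbm20 alone was called, against 17 of 14217 genes in all (0.120%, each gene by its brightest probe set, 0.0563% higher and 0.0633% lower). Ttn, the titin gene, was at 13.18, 13.17 and 13.27 in the mutants and at 13.15, 13.10 and 13.20 in the wild types, which overlap, with a difference of 0.06 ± 0.10 (SE). Of 21 measured transcripts known to be spliced by RBM20, 10 were higher and 11 lower, 0 were called by limma and 4 had an unadjusted p below 0.05, as had 1050 of all 14217 genes. In 7 the genotypes did not overlap, 3 higher and 4 lower, against 4.57% and 4.91% of all genes. The member of smallest p was Enah, an actin regulator, at 9.83, 9.95 and 10.21 in the mutants and 9.47, 9.49 and 9.37 in the wild types. The Enah arrays did not overlap, and its difference of 0.55 ± 0.12 (SE) had an adjusted p of 0.103. Ndufv3, a subunit of the first respiratory complex, was at -0.30 (adjusted p = 0.276), Sh3kbp1, an adaptor protein, at -0.21 and Mlip, which binds lamin in muscle, at -0.28 (adjusted p = 0.543). This list comes in part from work on this rat line and is not independent of it. The counts over all genes given here apply to every later list as well.

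Among titin's partners, Tcap rose. Tcap encodes telethonin, which ties the ends of titin together at the Z-disc. It was at 9.68, 10.10 and 10.11 in mutants 1, 2 and 3 and at 9.38, 9.06 and 9.19 in the wild types. All mutants were above all wild types, and the difference was 0.75 ± 0.14 (SE, adjusted p = 0.0378). Mutants 2 and 3, higher for Tcap, are those of high Sln, and the part of that in the result was not tested; without both of them the call ended. Of 34 measured genes of the Z-disc, M-band and titin spring, 24 were higher and 10 lower, with a median difference of 0.06 against -0.0007 over all 14217 genes. Tcap was the 1 call, against 0.120% of all genes. The next by p were Csrp3, the muscle LIM protein of the Z-disc, at 13.03, 13.07 and 12.98 against 12.59, 12.74 and 12.66 (adjusted p = 0.142), and Fhl1, a LIM protein of the titin spring, at 12.45, 12.47 and 12.18 against 11.77, 12.07 and 11.88 (adjusted p = 0.148). Both genes had all mutants above all wild types, as did 7 of the 34, against 4.57% of all genes. Synpo2, an actin-bundling Z-disc protein, was at 0.49 ± 0.12 (SE) and Nrap, a scaffold of forming myofibrils, at 0.36 ± 0.10. Among 2 members with all mutants lower was Smyd1, the methyltransferase that helps fold myosin, at -0.40 ± 0.12.

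The motor and filament genes stood level. Of 20 contractile filament genes, 10 were higher and 10 lower, with a median of -0.01, 0 called by limma and 1 at an unadjusted p below 0.05, Tnnt1, the slow skeletal troponin T. Myh6, the adult alpha-myosin, was at 13.11, 13.46 and 13.64 in the mutants and 13.61, 13.29 and 13.69 in the wild types. Myh7, the fetal and slow beta-myosin, lay between 13.88 and 14.06 on the 6 arrays, and Acta1, the skeletal actin, was at 13.50, 13.38 and 13.56 against 13.57, 13.45 and 13.66. In each of these 3 genes the animals of both genotypes overlapped, and the adjusted p was 0.969 or above. The dimmer Myh6 probe set overlapped too, at 6.44, 7.42 and 10.40 in the mutants against 7.95, 7.47 and 8.78. So did the dimmer Myh7 probe set, at 7.06, 7.98 and 10.16 against 8.01, 7.91 and 8.49, and in both the mutants were spread more widely than the wild types. Txlnb, a taxilin found in muscle, fell. It was at 6.59, 7.11 and 6.85 in the mutants and at 7.78, 7.72 and 7.41 in the wild types, a difference of -0.78 ± 0.13 (SE, adjusted p = 0.0191), and in its other probe set the difference was -0.66 (adjusted p = 0.0767).

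Natriuretic peptides and other signs of wall stress were not called either. Nppa, the atrial natriuretic peptide, was at 13.19, 13.88 and 13.95 in the mutants and at 13.40, 13.01 and 13.60 in the wild types, with the 2 highest levels in the mutants of high Sln. Its difference was 0.33 ± 0.33 (SE), and it was -0.15 without those 2 animals. Nppb, the B-type peptide, was at 12.29, 12.61 and 12.54 against 12.15, 12.59 and 12.27, and Ankrd1, a stretch-responsive titin partner, at 12.57, 12.78 and 12.68 against 12.12, 12.82 and 12.44. Wild type 2 reached the mutant level in both. Of 24 genes of hypertrophy and wall stress 18 were higher and 6 lower, with a median of 0.13. In this list 0 were called by limma and 6 had an unadjusted p below 0.05, as had 1050 of all 14217 genes. Csrp3 and Fhl1 belong to this list too, and after them came Hbegf, a heparin-binding growth factor, at 0.35 ± 0.12 (SE) and Tgfb2, a transforming growth factor, at 0.33 ± 0.12. List medians at days 20 and 49 were 0.23 and 0.29.

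Calcium handling genes were lower in 17 of 26, with a median of -0.06. Efhd1, a calcium-binding protein of mitochondria, fell. Its levels were 5.07, 5.47 and 5.25 in the mutants and 6.16, 6.24 and 5.76 in the wild types, a difference of -0.79 ± 0.15 (SE, adjusted p = 0.0441). The mean of the mutants lies below the table median. Hrc, the histidine-rich calcium-binding protein of the sarcoplasmic reticulum, was at -0.40 ± 0.12 and Casq1, the skeletal calsequestrin, at 0.51 ± 0.15, each with an adjusted p of 0.323 and with no overlap between the genotypes. Asph, of the junctional reticulum, was at -0.33 ± 0.11. Sln was at 2.71 ± 0.92 (adjusted p = 0.471), with mutants 2 and 3 high and mutant 1 at the wild-type level.

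Pgam2, the muscle phosphoglycerate mutase of glycolysis, was at 8.73, 9.29 and 9.06 in the mutants and at 10.04, 9.60 and 10.03 in the wild types. All mutants were lower. Pgam2 fell by 0.87 with an SE of 0.14 (adjusted p = 0.0139). Of 25 genes of glycolysis and glucose uptake 10 were higher and 15 lower, and Pgam2 was the 1 call, against 0.120% of all genes. Aldoc, an aldolase of the same pathway, was at 8.90, 8.53 and 8.78 against 9.48, 9.18 and 9.16, a difference of -0.54 ± 0.11 with an adjusted p of 0.0585. The median of the pathway was -0.03.

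Fatty acid oxidation and lipid handling genes were lower in 37 of 44, with a median of -0.21, against 7148 of 14217 genes lower in all. By limma 0 were called and 10 had an unadjusted p below 0.05, as had 1050 of all 14217 genes. Averaged over the 44 genes, the levels were 9.14, 9.18 and 9.38 in mutants 1, 2 and 3 and 9.57, 9.15 and 9.62 in wild types 1, 2 and 3. Wild type 2 thus stood at the level of mutants 1 and 2, and these are the 3 arrays with a Gapdh gap above 1; the part of RNA end balance in the difference was not tested beyond the covariate, with which the median was -0.18. Plin5, a lipid droplet protein, was at 5.85, 5.50 and 5.64 against 7.06, 5.92 and 6.65, and Hadh, an enzyme of beta-oxidation, at 10.27, 10.39 and 10.40 against 10.76, 10.51 and 10.76. In both genes all mutants were below all wild types, as in 5 of the 44 (4.91% of all genes), with adjusted p of 0.248 and 0.353. Lpl, the lipoprotein lipase, was at -0.44 ± 0.14 (SE) and Acot2, a mitochondrial thioesterase, at -0.50 ± 0.17. Without mutant 3 and wild type 2, 17 members were called lower and 2 higher, where 2.29% and 1.93% of all genes were called. With the Gapdh gap as a covariate in addition, 11 were called lower and 1 higher (1.04% and 0.858% of all genes). This omission, chosen after the data were seen, takes out the wild type that stood at the level of mutants 1 and 2. Among the animals left genotype and the Gapdh gap cannot be told apart, and the part of each was not tested.

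Genes of creatine and phosphagen metabolism were lower in 9 of 10, with a median of -0.22, against 7148 of 14217 genes lower in all. By limma 0 were called and 5 had an unadjusted p below 0.05, as had 1050 of all 14217 genes. The mean level of these 10 genes was 7.43, 7.55 and 7.31 in the mutants and 7.60, 7.74 and 7.55 in the wild types. Each mutant thus lay below each wild type, although mutant 2 and wild type 3 were nearly level. Gamt, which makes creatine, was at 7.53, 7.41 and 7.36 against 7.94, 8.08 and 7.70, and Ckm, the muscle creatine kinase, at 12.39, 12.36 and 12.39 against 12.56, 12.72 and 12.61. Their adjusted p were 0.182 and 0.373. Ckb, the brain-type kinase, was at -0.40 ± 0.14 (SE) and Ckmt2, the mitochondrial kinase of muscle, at -0.46 ± 0.18. Without mutant 3 and wild type 2 the median of this list was -0.07.

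The respiratory chain and tricarboxylic acid cycle were near level, with 27 of 41 genes lower and a median of -0.04. Here 0 were called and 1, Ogdh of the cycle, had an unadjusted p below 0.05, at 10.15, 10.41 and 10.61 against 10.82, 10.70 and 10.76. Genes that maintain mitochondrial DNA or salvage nucleotides were lower in 15 of 18, with a median of -0.10, and 2 had an unadjusted p below 0.05. Dguok, the mitochondrial deoxyguanosine kinase, fell in its dimmer probe set, at 3.999, 3.89 and 3.78 in the mutants and 5.68, 5.25 and 5.44 in the wild types. The difference was -1.57 ± 0.27 (SE, adjusted p = 0.0267), with mutant levels in the range of background. Its brighter probe set, which stands for the gene in the list, was at 6.68, 7.12 and 7.58 against 7.60, 7.82 and 7.92, also with no overlap, at -0.65 ± 0.17 and an adjusted p of 0.225.

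**Figure D3:**
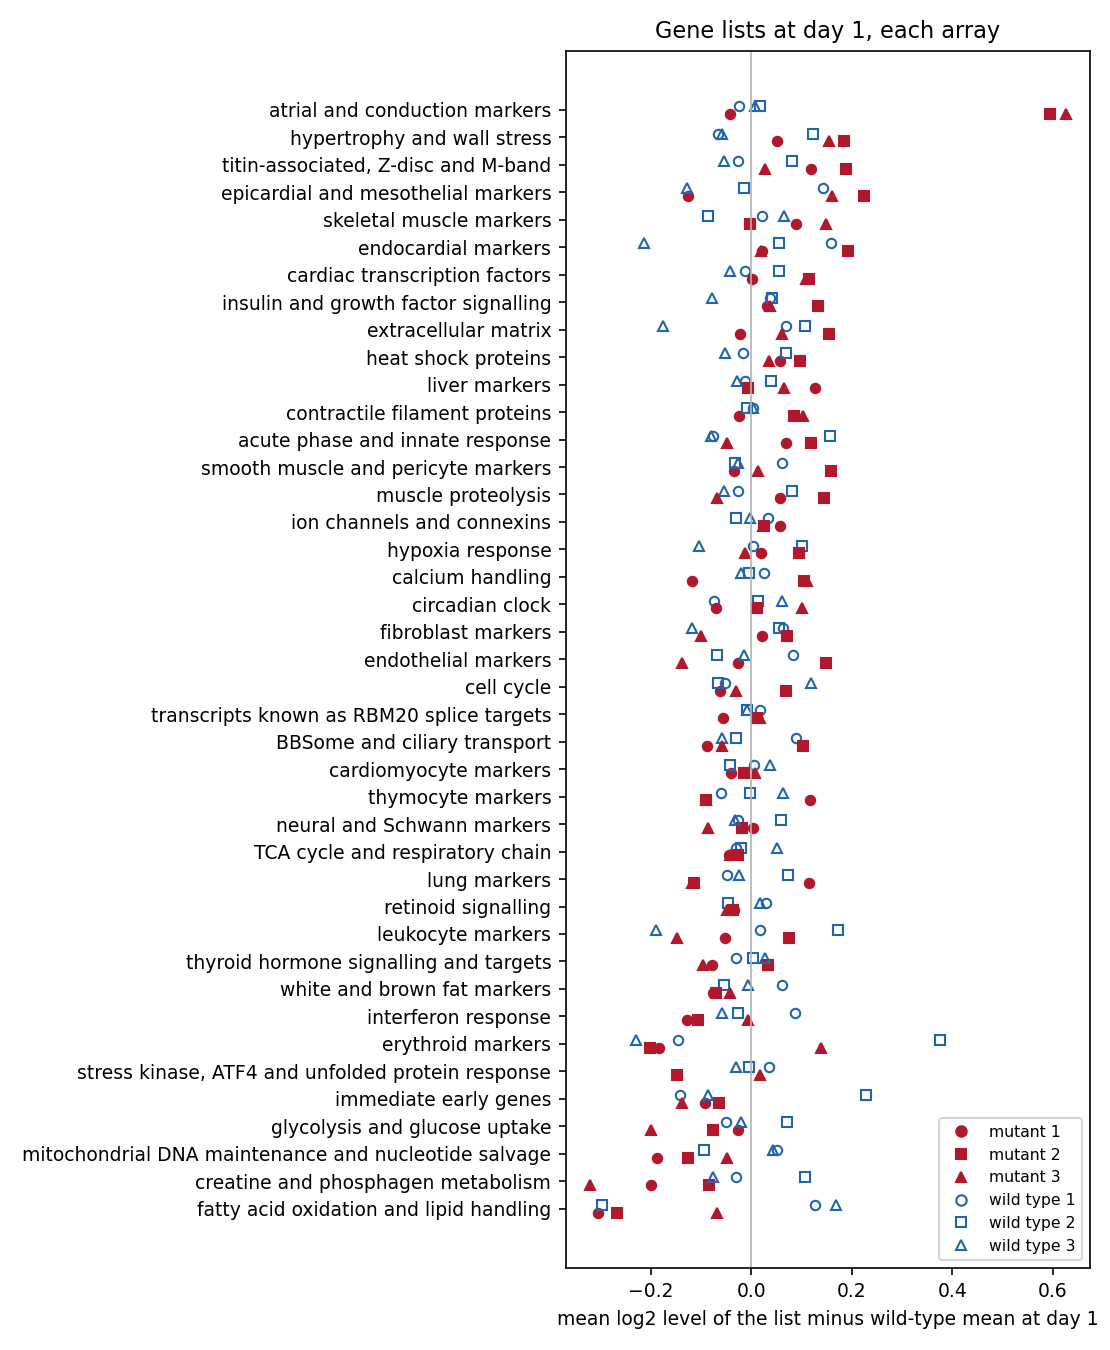
Mean log2 level of each gene list on the 6 day 1 arrays, minus the wild-type mean of that list (horizontal), with the lists ordered by their mean difference. Filled red symbols are mutant and open blue symbols wild-type animals; creatine metabolism has all mutants below all wild types, fatty acid oxidation has wild type 2 among the mutants, and the atrial markers are high in mutants 2 and 3 alone (means of 8.51 and 8.55 against 7.88 to 7.94).

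Among the other genes that rose, Ildr2, an immunoglobulin-like receptor of the endoplasmic reticulum and cell junctions, had 2 called probe sets. The first was at 7.45, 7.86 and 7.56 in the mutants and at 5.90, 6.22 and 5.92 in the wild types, higher by 1.61 ± 0.17 (SE, 3.05-fold, adjusted p = 0.000239). The second probe set was higher by 1.05 ± 0.12 and was called too, the third was at 8.12, 8.67 and 8.67 against 6.96, 7.62 and 7.16 (1.24 ± 0.24, adjusted p = 0.0585), and the fourth, near background, was at 0.23. Saa3, a serum amyloid A protein of the acute phase, was at 8.49, 8.57 and 8.10 in the mutants and at 6.56, 7.43 and 6.11 in the wild types. The wild types were spread more widely than the mutants, with wild type 2 highest among them, and the difference was 1.69 ± 0.22 (3.22-fold, adjusted p = 0.00172). It was the 1 call among 25 acute phase and innate response genes, against 0.120% of all genes. The list had a median of 0.05. C3, the complement component, was second by p, at 4.19, 4.29 and 4.02 against 4.76, 4.39 and 5.09, below the table median throughout.

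Opn3, a non-visual opsin, was at 6.43, 6.93 and 7.003 in the mutants and 6.04, 5.66 and 5.81 in the wild types, a rise of 0.95 ± 0.13 (SE, adjusted p = 0.00351). Abca5, a lysosomal lipid transporter, was at 6.66, 6.91 and 6.86 against 6.04, 5.62 and 5.95, a rise of 0.94 ± 0.14 (adjusted p = 0.0103). Neither gene's groups overlapped, and mutant 1 was the lowest mutant in both. Scrn1, a cytosolic protein linked to exocytosis, rose by 1.04 ± 0.20 (adjusted p = 0.0484), with wild type 2 at 6.50 against 5.72 and 5.62 in the other wild types and 6.85 to 7.09 in the mutants. Vsig10, an immunoglobulin-domain membrane protein, rose by 0.64 ± 0.12 (adjusted p = 0.0441). Plg, the plasminogen gene of liver, was at 5.48, 5.46 and 5.44 in the mutants and 4.84, 4.71 and 4.85 in the wild types, a rise of 0.66 ± 0.12 (adjusted p = 0.0331) with wild-type levels below the table median and mutant levels close to it. Of 17 liver markers 2 stood above the table median, and Alb, the albumin gene, was between 4.49 and 5.004 on all 6 arrays.

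Among the falls, Rxrg, a retinoid X receptor, was at 6.53, 6.53 and 7.36 in mutants 1, 2 and 3 and at 8.46, 7.48 and 8.24 in wild types 1, 2 and 3. Mutant 3, the highest mutant, came close to wild type 2, the lowest wild type, and the difference was -1.25 ± 0.22 (SE, 2.38-fold, adjusted p = 0.0345). Its other, dimmer probe set was at 0.01 and overlapped. The 20 retinoid genes had a median of -0.01 with no other call. Prss35, a secreted protein of the serine protease family, was at 4.02, 4.59 and 3.50 against 5.59, 6.19 and 4.69. It fell by 1.45 with an SE of 0.27 (adjusted p = 0.0441), mutant 2 and wild type 3 nearly met, and it was called under 8 of the 21 alternatives. Alpl, the tissue-nonspecific alkaline phosphatase, fell by 0.52 (adjusted p = 0.0378), Veph1, a pleckstrin-homology protein, by 0.67 (adjusted p = 0.0271) and LOC100912248, an unnamed locus, by 0.81 (adjusted p = 0.0225). The SEs of these 3 were 0.09, 0.12 and 0.14, and the arrays of the genotypes did not overlap in any of them.

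Of the called genes, 3 lie within 25 genes of Rbm20. Gene order was read from the mouse assembly GRCm38.p6 of RefSeq, as no rat assembly was used here, so it describes the mouse. There Pdcd4 and Bbip1 are 2 and 3 genes from Rbm20 and Fhip2a, listed under its older symbol Fam160b1, is 25 genes away. Fhip2a thus lies at the edge of the window, and a narrower one would hold Pdcd4 and Bbip1 alone. These were the 3 called by any probe set among 38 measured genes within 25 genes on either side, against 21 of 14217 genes in all (0.148%). Pdcd4, an inhibitor of translation initiation, was at 8.02, 8.40 and 8.30 in the mutants and 7.59, 7.36 and 7.11 in the wild types, a rise of 0.89 ± 0.16 (SE, adjusted p = 0.0345). The second called Pdcd4 probe set was at 0.84, and 3 others at 0.74, 0.55 and 0.02. Bbip1, a subunit of the BBSome that moves cargo in cilia, was at 6.61, 6.99 and 6.75 against 8.02, 8.45 and 7.96. Every mutant was well below every wild type, and Bbip1 fell by 1.36 with an SE of 0.15 (2.56-fold, adjusted p = 0.000263). It was the 1 call among 23 genes of the BBSome and ciliary transport, against 0.120% of all genes by their brightest probe sets. Fhip2a, which links cargo to the motor dynein, was at 8.29, 7.87 and 8.62 in the mutants and 6.74, 6.59 and 6.64 in the wild types, a rise of 1.598 ± 0.16 (3.03-fold, adjusted p = 7.18e-05). Shoc2, a scaffold of the Ras pathway and 4 genes from Rbm20, was at 0.74 with an adjusted p of 0.148. Of 20 called genes found in that assembly, 4 with Rbm20 itself share its chromosome, which holds 455 of the 13285 measured genes found there (3.42%).

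Calls differed in how far they rested on single animals. Rbm20, Ildr2, Fhip2a, Bbip1, Saa3, Opn3 and 4 probe sets with no symbol, 12 probe sets in all, kept their call whichever of the 6 animals was left out. These fits still took their spread from the later ages as well. With the day 1 arrays alone, both Rbm20 probe sets and 1 of Ildr2 were the only ones of the 12 still called. Under single omissions, Abca5 lost its call without mutant 2, Txlnb without mutant 1 or wild type 1, and Pgam2 without wild type 1 or 3. Pdcd4 lost 1 of its 2 calls without wild type 1, and both without mutant 2 or wild type 3. Alpl and Dguok lost it without mutant 2, wild type 1 or wild type 3. Rxrg, Veph1, LOC100912248, Vsig10 and Scrn1 lost it without mutant 1, mutant 2, wild type 1 or wild type 3. Tcap lost it without mutant 2 or any wild type, Efhd1 without mutant 1, mutant 2, wild type 1 or wild type 2, Prss35 without mutant 1, mutant 3, wild type 1 or wild type 2, and Plg without any animal but mutant 3.

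The 10 called probe sets with no symbol are named here by their identifiers. The largest, 1378866_at, was at 4.75, 6.86 and 5.05 in the mutants and 8.16, 7.87 and 8.24 in the wild types. Mutant 2 stood apart from the other mutants, and it fell by 2.53 with an SE of 0.35 (adjusted p = 0.00338). The probe set 1396205_at was at 5.08, 4.68 and 5.14 against 6.81, 6.04 and 6.79, and 1377904_at at 6.02, 6.16 and 6.31 against 5.22, 4.94 and 5.002. Both had clear gaps between the genotypes. The other 7 lay between -1.37 and 1.26, 4 of them higher and 3 lower in the mutant.

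Just short of the threshold lay 15 named probe sets without overlap between the genotypes, 6 higher and 9 lower, with adjusted p from 0.0510 to 0.102. The called probe sets end at 0.0484. Ccne1, a cyclin of the entry into DNA synthesis, was at 6.87, 6.73 and 7.17 in the mutants and 7.61, 7.70 and 7.37 in the wild types. Drd4, a dopamine receptor, was at 5.61, 5.11 and 6.08 against 7.12, 6.15 and 6.77, and Prune2 at 6.04, 6.29 and 5.95 against 6.84, 7.87 and 6.71. These 3 had differences of -0.64, -1.08 and -1.05. The 2 brighter probe sets of Prune2 were at 0.27 and 0.02 and overlapped, as did the 2 dimmer ones of Drd4, at -0.25 and -0.16. Gnas, the stimulatory G-protein subunit, was at 1.04 ± 0.21 (SE) in a probe set where its brightest one was at 0.01, and Homer1, a scaffold protein, at 0.43 ± 0.09. Slc30a4, a zinc transporter, was at 0.48, Asap1, a regulator of Arf proteins, at 0.56 and Adamtsl5 at 0.62, beside the third Ildr2 probe set. A brighter Asap1 probe set was at 0.28 and its dimmer ones at 0.25, 0.18 and -0.08, all with overlap. The dimmer Adamtsl5 probe set was at -0.115 and overlapped too. Tcea3, a transcription elongation factor, was at -0.70, Ska2 and Itgb3bp, of the kinetochore and centromere, at -0.75 and -0.48, and Dhrs7c, a dehydrogenase of the sarcoplasmic reticulum, at -0.69.

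The atrial and conduction markers separated mutants 2 and 3 from the other animals. Their mean level was 7.88, 8.51 and 8.55 in mutants 1, 2 and 3 and 7.89, 7.94 and 7.93 in the wild types. Of 18 measured, 16 were higher in the mutant mean and 2 lower, with a median of 0.26. By limma 0 were called and 5 had an unadjusted p below 0.05, as had 1050 of all 14217 genes. Stard10, a lipid transfer protein, was at 5.97, 8.13 and 7.85 in the mutants and 6.24, 6.41 and 6.47 in the wild types, and like Sln it was high in mutants 2 and 3 only. Gja5, the connexin of atrium and conduction system, was at 9.47, 9.64 and 10.004 against 8.95, 9.51 and 8.94 in the wild types, and Kcnj5, a potassium channel, at 8.17, 8.42 and 8.41 against 7.76, 8.23 and 7.62. In these 2 genes mutant 1 was high as well but below wild type 2. None of the 18 had all mutants above all wild types. In ventricular or whole-heart RNA, more atrial tissue and more transcript per cell cannot be told apart.

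**Figure D4:**
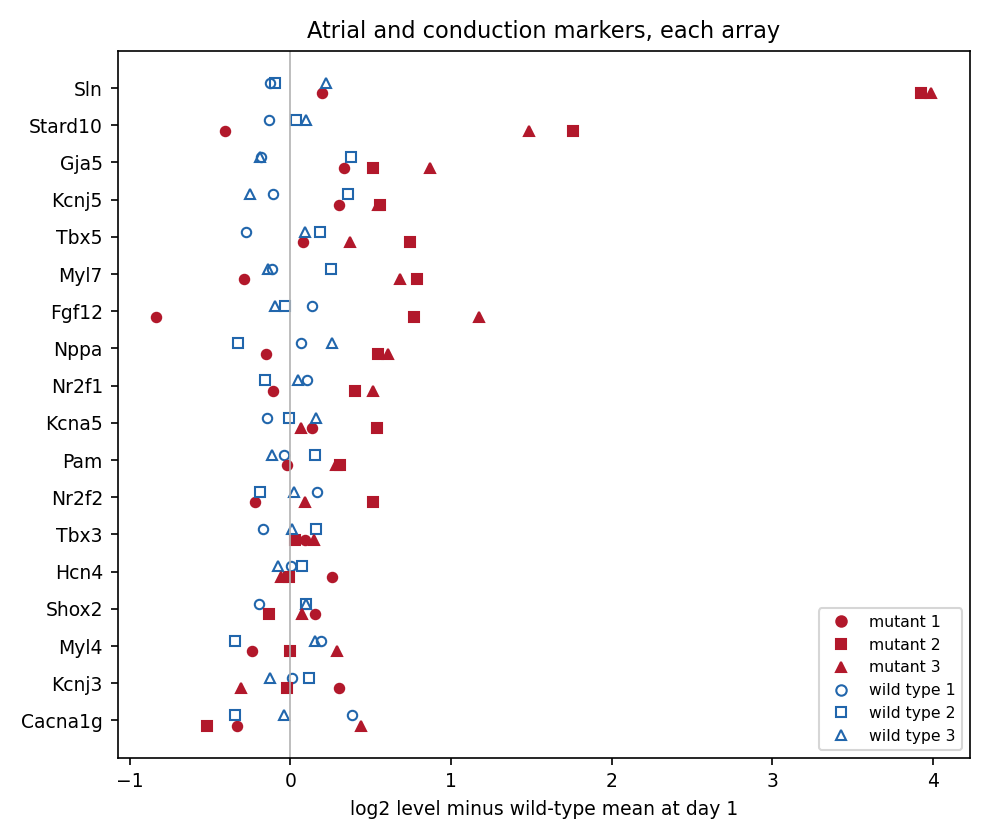
The 18 measured atrial and conduction markers, as the log2 level of every day 1 array minus the wild-type mean (horizontal). Filled red symbols are mutant and open blue symbols wild-type animals; Sln is about 4 units higher in mutants 2 and 3 (10.03 and 10.09) than in mutant 1 (6.30), and Stard10 and Fgf12 follow the same animals.

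Markers of other cells were not called, save Plg. Cardiomyocyte markers were bright and even, with means of 13.32 to 13.39 on the 6 arrays and a median difference of -0.02. Medians of the fibroblast, endothelial, endocardial, smooth muscle and pericyte, leukocyte and epicardial lists lay between -0.05 and 0.07. Erythroid markers had a median of -0.14, with list means of 6.42 in wild type 2, 6.18 in mutant 3 and 5.81 to 5.90 in the others. Thymocyte and lung markers had 1 of 10 members each above the table median, and skeletal muscle markers 5 of 20.

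Most of the day 1 calls had the same sign at later ages, although few were called there. At day 20 there were 43 calls (0.139%) and at day 49 there were 188 (0.606%). Of the 34 day 1 calls, 10 were called at day 20, 9 at day 49, 8 at both and 23 at neither, and 27 had the same sign at all 3 ages. These 27 include small later differences, such as -0.13 and -0.19 for Prss35, and the share over all probe sets was not taken. Fhip2a differed by 1.598, 2.20 and 1.93 at days 1, 20 and 49, Bbip1 by -1.36, -1.35 and -1.37 and 1378866_at by -2.53, -2.70 and -2.01. Ildr2 differed by 1.61, 0.46 and 0.77, Tcap by 0.75, 0.09 and -0.05, Rxrg by -1.25, -0.49 and -0.65, and Pgam2 by -0.87, -0.45 and -0.71. Of these 7, the difference between day 1 and later ages was not called for any in the test described next, with adjusted p of 0.168 to 1.00.

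Whether the day 1 difference departs from the mean of the day 20 and day 49 differences was tested directly, and 14 probe sets were called (0.0451%), with 1786 at an unadjusted p below 0.05. For 4 of the 34 day 1 calls it did. Saa3 differed by 1.69 at day 1, 0.02 at day 20 and -0.15 at day 49 (adjusted p of the departure = 0.0138). The dimmer Dguok probe set differed by -1.57, 0.98 and 0.35 (adjusted p = 0.0114). The others were 1396205_at, at -1.58, 0.06 and 0.38, and 1377904_at, at 1.11, 0.12 and 0.35. Most of the other named departures were genes that were called higher at both later ages and not at day 1. Bex1, an adaptor protein known from nerve cells, was at 11.37, 11.33 and 11.46 in day 1 mutants and at 11.39, 11.17 and 11.55 in the wild types, and was 0.91 and 2.29 higher at days 20 and 49. Kcnq1, a potassium channel of repolarization, was at 8.58, 8.30 and 8.60 against 8.42, 8.48 and 8.45 at day 1, and 0.90 and 0.96 higher later. Msrb2, a mitochondrial methionine sulfoxide reductase, differed by 0.16, 1.35 and 1.14, and Mybpc2, a myosin-binding protein of fast muscle, by 0.18, 0.77 and 1.41. 2310002L09Rikl, a predicted gene, was at 6.36, 6.35 and 5.84 in day 1 mutants and 5.64, 5.58 and 5.28 in the wild types, 0.68 ± 0.15 (SE) higher and not called (adjusted p = 0.135), and was 3.57 and 3.67 higher later. Its second probe set was at 0.35 at day 1 and 1.86 and 1.64 higher later. The third, dimmer one went the other way, at 3.90, 4.30 and 4.07 against 4.62, 4.76 and 4.15 at day 1, overlapping and below the table median. Its differences were -0.42, -1.36 and -1.57 at the 3 ages, called lower at days 20 and 49. Osbpl3, an oxysterol-binding protein, was not called at any age, at -0.63, 0.35 and 0.54 in the probe set of the departure. The brighter Osbpl3 probe set was at -0.007, -0.20 and -0.11, with a departure of 0.15 (adjusted p = 0.978).

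**Figure D5:**
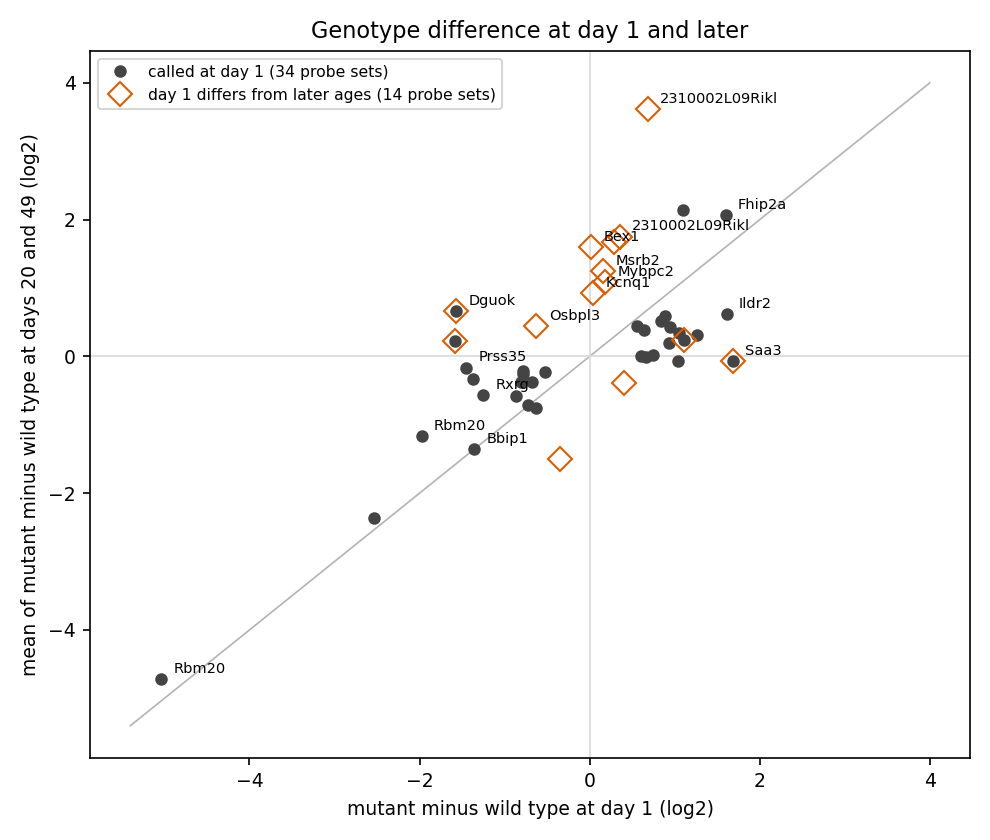
Mutant minus wild-type difference at day 1 (log2, horizontal) against the mean of the differences at days 20 and 49 (log2, vertical). Dots are the 34 probe sets called at day 1 and open diamonds the 14 whose day 1 difference departs from later ages. The line marks equal differences, and Bbip1 and the first Rbm20 probe set (-5.04 at day 1, -5.11 and -4.33 later) lie near it. The second Rbm20 probe set was at -1.98 at day 1 and at -1.25 and -1.09 later, and Saa3 (1.69 at day 1) lies near 0 later.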

How the data were processed

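RNA from 18 hearts was hybridised to an Affymetrix rat expression array, and the authors deposited log2 values from robust multi-array analysis (RMA), per the series design text and the submitters' processing notes, which give no version. RMA brings all arrays to a shared distribution, so a change in total RNA is not visible. The organism field names mouse, whereas the array, the strains and the descriptions are of rat. Of 31099 probe sets, 57 controls were left out and 31042 tested. Platform annotation gave 1 gene symbol for 20826, several for 436 and none for 9780. For gene lists, the probe set of highest mean stood for each of 14217 genes.

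A model with 6 groups over all 18 arrays was fitted with limma 3.58.1 in R 4.3.3, leaving 12 residual degrees of freedom beside 5.771 from the prior. Tested were mutant minus wild type at day 1, and that difference minus the mean of the differences at days 20 and 49. P-values were adjusted by the Benjamini-Hochberg method and called below 0.05. The fit was tested on simulated data. The number of arrays limits the precision.

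Named genes were all called probe sets with a symbol, the 15 next by p without overlap, the called departures from later ages, 9 markers fixed by name (Acta1, Ankrd1, Myh6, Myh7, Nppa, Nppb, Rbm20, Tcap and Ttn) and up to 4 members per list. Other probe sets were chosen after their values were seen. The comparison, members and lists were chosen with earlier results of these data known. Of 21 alternatives, 4 were chosen after seeing the data: those on Xist, on Sln and on Xist with the Gapdh gap.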

Additional observations from a re-analysis of the deposited data

Results flagged for a closer look

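In 14 probe sets the genotype difference at day 1 departed from the mean of the differences at days 20 and 49, by limma's contrast of the differences with Benjamini-Hochberg adjustment over all probe sets. Values are log2 and give the day 1 difference minus the later one. Of 3 probe sets of 2310002L09Rikl, 2 were at -2.94 (adjusted p = 2.615e-07) and -1.40 (adjusted p = 0.00651), and the third, not called here, was at 1.04 (adjusted p = 0.0582). Bex1 was at -1.58, Kcnq1 at -0.89, Msrb2 at -1.09, Mybpc2 at -0.91 and Osbpl3 at -1.07, with adjusted p of 0.00244 to 0.0311. The brighter probe set of Osbpl3, not called here, was at 0.15 (adjusted p = 0.978). The dimmer probe set of Dguok was at -2.23 and Saa3 at 1.75, and these are the named genes among the 14 that were also called at day 1. Of those with no symbol, 1396205_at was at -1.80, 1396067_at at -1.39, 1396062_at at 0.79, 1377904_at at 0.88 and 1371394_x_at at 1.14, with adjusted p of 0.00469 to 0.0476. Without mutant 3 the count was 83, and without wild type 1 it was 7.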

How the results depend on the processing

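The 34 day 1 calls numbered 26 to 43 with median centring, quantile normalization, a filter on dim probe sets, the Gapdh gap or the Xist level as a covariate, or eBayes with trend and robust settings. They were 24 with 1 probe set per gene, 4 with the day 1 arrays alone, 135 with array weights, 64 without the arrays of a Gapdh gap above 1, 64 without the 2 of high Sln, 1239 without the 2 of high Xist and 609 with the Gapdh covariate in addition. Single omissions gave 15 to 234. The 14 departures from later ages became 9 with the dim filter, 35 with array weights, 35 without the arrays of a Gapdh gap above 1, 6 with 1 probe set per gene, 51 without high Sln, 773 without high Xist and 298 with the Gapdh covariate in addition, and 7 to 83 under single omissions. No such value came from the day 1 arrays alone, which hold no later age. The first Rbm20 probe set kept its call under all 21 alternatives, at -5.30 to -4.63. The second kept its call under the 20 that included it, at -2.30 to -1.73, and was left out with 1 probe set per gene. Of 908 values of 46 named probe sets, 685 kept direction and side of the threshold, 133 lost a call, 85 gained one and 5 changed sign, all of uncalled genes. Ttn was -0.11 without high Xist with the Gapdh covariate, Myh7 -0.047 without the arrays of a Gapdh gap above 1, and Nppa -0.15 and Nppb -0.043 without high Sln. Myh6 ranged from -0.25 to 0.019 under single omissions. The cause was not tested. Same-numbered animals deviated together with correlations of -0.13, 0.17 and 0.19. Animals of numbers 2 and 3 correlated best with their own number and those of number 1 did not. These values do not settle whether the numbers pair animals. With the replicate block as a fixed term there were 37 calls, 23 of them among the 34, and 24 departures, and as a random term 35 and 14.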

Other observations

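Of 21 genes of stress kinase, ATF4 and unfolded protein signalling, 15 were lower and 6 higher, with a median of -0.15. By limma 0 were called and 4 had an unadjusted p below 0.05, as had 1050 of all 14217 genes. Hspa5, the main chaperone of the endoplasmic reticulum, was at 10.06, 9.85 and 10.49 in the mutants and at 10.55, 10.56 and 10.58 in the wild types, a difference with an adjusted p of 0.274. Mutant 3 came close to the wild types and the other mutants did not. In 5 members the genotypes did not overlap: Hspa5 and Dnajb9 were lower, at -0.43 and -0.20, and Mthfd2, Ddit4 and Asns higher, at 0.27, 0.50 and 0.44. Of all genes 4.91% were lower and 4.57% higher without overlap. The list medians at days 20 and 49 were 0.03 and 0.11. Of 21 immediate early genes 15 were lower, with a median of -0.11, 0 called and 2 at an unadjusted p below 0.05, and their mean was 7.22 in wild type 2 against 6.86 to 6.93 in the other 5 animals. Of 21 interferon response genes 15 were lower, with a median of -0.04, 0 called and 2 at an unadjusted p below 0.05.

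Cell cycle and matrix genes, by contrast, were near level at day 1 and had higher medians later. Of 43 cell cycle genes 23 were higher and 20 lower at day 1, with a median of 0.06, 0 called and 5 at an unadjusted p below 0.05, and medians of 0.31 and 0.24 at days 20 and 49. Of 48 extracellular matrix genes 29 were higher, with a median of 0.05, 0 called and 3 at an unadjusted p below 0.05, and a median of 0.27 at day 49. The departure of these medians from day 1 was not tested. Of 25 ion channel and connexin genes 14 were lower, with a median of -0.01, 0 called and 4 at an unadjusted p below 0.05. Heat shock proteins had 7 of 13 higher and 3 at an unadjusted p below 0.05, and thyroid hormone genes 9 of 15 lower and 0 at that level, with 0 called in both. Hypoxia, circadian clock, proteolysis and cardiac transcription factor genes had medians between -0.01 and 0.06 and no call.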
